A study of Mus musculus with 6 samples.

Results

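The genes described here are those that the array names Zfp followed by a number, the mouse name for zinc finger proteins. They were chosen by name and by detection: a gene entered when a probe of that name was well above background on both untreated arrays, and the probe with the highest mean signal over the 6 arrays stood for it. That gave 215 members of 240 such names on the array, and 17345 gene names were tested in all. The family was also selected on its measured values, because its genes fell at 2 h and came back at 4 h. All 3 comparisons below were therefore used in the choice, and the members' values, medians and calls are given as a description, with no test of the family.

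RNA came from primary mouse embryonic fibroblasts, which are connective tissue cells taken from embryos and grown for a limited time in culture. The cells were left untreated (0 h) or kept in 1 mM H2O2, hydrogen peroxide, for 2 h or 4 h, and each time point was measured on 2 one-colour Agilent arrays from independent experiments. All cells shared the same serum-containing medium, and the strain and the age of the embryos are not given in the sources used here. What made the experiments independent is not given either, so the errors below measure the spread between these arrays, which may be technical. There were no untreated cells at 2 h or 4 h, so H2O2 and time in the altered culture cannot be told apart. Each slide held 1 array of each time point at the same place on both slides, so place and time point cannot be told apart. In bulk RNA, fewer cells of a type and less RNA per cell cannot be told apart.

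A classical zinc finger is a short protein loop that holds a zinc ion and reads a few bases of DNA, and a row of fingers reads a longer site. Many Zfp proteins carry a KRAB domain, which binds the corepressor Trim28 and so brings the histone methyltransferase Setdb1 and heterochromatin proteins to the site, often a transposable element. The genes multiplied by duplication and lie in clusters, and other members act outside this system, as activators, RNA-binding proteins or ubiquitin ligases.

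Signals below are percentages of the 75th percentile of the same array, and changes are differences of log2 signal ± SE from the fit of all 6 arrays, with 2 arrays in each group. A signal depends on its probe, so signals are compared between arrays and not between genes. A gene is called lower or higher, or said to have fallen or risen, when its p-value adjusted over all 17345 names, from limma, was under 0.05.

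At 2 h most of the family had lost signal. The median signal of the members was 74.0 and 71.9 on the untreated arrays, 46.6 and 47.1 at 2 h, and 81.1 and 80.6 at 4 h. Both 2 h arrays lay below all the others, and both 4 h arrays lay above the untreated ones. At 2 h against untreated 118 of 215 members (54.9%) were called lower, beside 15.3% of all names tested and 16.2% of the names that entered by the same detection rule. Another 16 members (7.44%) were called higher, beside 23.7% and 20.8%, and 81 were not called. The median change was -0.39 on the log2 scale, with the middle 50% of members between -0.92 and -0.02 and, among the 204 members well above background on all 6 arrays, extremes of -2.07 (Zfp111) and 1.34 (Zfp473). Over all names tested the median change was 0.12, so the family's median lay 0.51 below it (-0.51). Within the slide of replicate 1 the members' median was -0.39, and within that of replicate 2 it was -0.41. The shares called lower moved with the scaling between arrays. With median centring 138 members were called lower, beside 22.2% of all names. With no scaling 157 were, beside 33.1%, and with spike-in scaling 175, beside 53.8%. With the slide as a replicate block the members called higher numbered 25, beside 33.5% of all names. Without untreated replicate 2 or 2 h replicate 2 fewer members were called higher, and a smaller share of all names was called higher too. The family's median relative to all names was then -0.50 and -0.49.

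Between 2 h and 4 h the direction turned. Against 2 h, 134 members (62.3%) were called higher at 4 h, beside 13.4% of all names and 13.9% by the same detection rule. Only 12 (5.58%) were called lower, beside 16.4% and 15.9%, and 69 were not called. The median change was 0.55, and 0.63 above that of all names, which was -0.08. It was 0.51 within the first slide and 0.57 within the second. There were 105 members (48.8%) that were called lower at 2 h against untreated and higher at 4 h against 2 h, beside 7.94% of all names and 8.41% by the same detection rule. This is the pattern the family was picked for, and both comparisons use the same 2 h arrays. Without any 1 of the 2 h or 4 h arrays fewer members were called lower between 2 h and 4 h. A smaller share of all names was called lower too, and the family's median relative to all names was then 0.58 to 0.63.

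At 4 h against untreated cells the family as a whole lay close to where it began. The median change was 0.10, which is 0.03 above the median of all names (0.07). Of the members, 64 (29.8%) were called higher, beside 24.6% of all names and 22.3% by the same detection rule, and 25 (11.6%) were called lower, beside 18.4% and 19.4%. The remaining 126 were not called. This split moved with the scaling between arrays. With each array centred on its median 33 were higher and 35 lower, beside 13.2% and 23.8% of all names. With no scaling the counts were 21 and 57, beside 10.2% and 31.7%, and with scaling on the spike-in control spots 29 and 68, beside 11.6% and 35.7%. Under those scalings the median of all names at 4 h was -0.09, -0.19 and -0.19, and the family's median relative to it was 0.03 under each. At 2 h the median of all names was -0.08 with median centring, -0.22 with no scaling and -0.34 with spike-in scaling. The family's median relative to it was -0.51 each time. These scalings shift all names of an array by the same amount. They therefore cannot change the relative median at either time, and its constancy says nothing about the family. Without untreated replicate 1 or 2, fewer members were called higher or lower at 4 h, and smaller shares of all names were called too. The family's median relative to all names at 4 h was then 0.03 and 0.05.

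**Figure D1:**
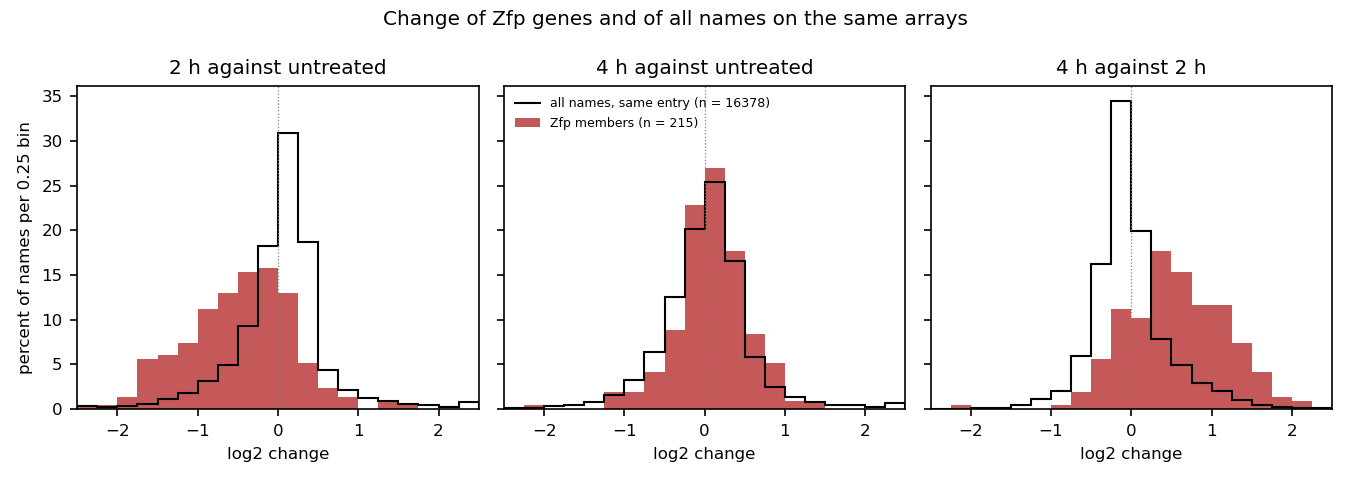
Share of names (y axis, percent per bin of 0.25) by log2 change (x axis) for the 215 Zfp members (filled bars) and the 16378 names that entered by the same detection rule (outline), in 3 comparisons; values beyond the ends are counted in the end bins. The members' bars lie left of the outline at 2 h, with medians of -0.39 and 0.09, nearly over it at 4 h (0.10 and 0.04), and right of it between 2 h and 4 h (0.55 and -0.07).

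Among the members that fell at 2 h, Zfp111 had the largest change of those above background on every array. Its signal was 69.7 and 65.6 in untreated cells, 14.5 and 17.8 at 2 h, and 59.1 and 64.0 at 4 h. Both 2 h arrays lay far below the other 4, and the 4 h arrays lay just under the untreated ones without overlap. The log2 change was -2.07 ± 0.12 at 2 h, a 4.21-fold lower signal, and -0.14 ± 0.12 at 4 h, where it was not called.

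Zfp454 gave 5.03 and 4.67 in untreated cells, 0.732 and 1.17 at 2 h, and 4.67 and 3.97 at 4 h. It was not well above background on either 2 h array. At 2 h its signal was at least 2.1-fold lower than in untreated cells, which is a bound from the lowest signal well above background on each 2 h array. Zfp398 was likewise not well above background at 2 h, with 7.49 and 7.30 in untreated cells, 2.27 and 1.72 at 2 h, and 4.92 and 4.95 at 4 h. Its bound at 2 h was at least 3.2-fold lower, and at 4 h it was still called lower (-0.58 ± 0.14), with 1 of the 2 arrays above background. That direction turned with normexp background correction and the 75th percentile (0.46).

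Several members had returned by 4 h. Zfp667, whose rat counterpart was first described as a gene raised by ischaemic preconditioning of the heart, gave 23.8 and 22.3 in untreated cells, 5.99 and 8.03 at 2 h, and 23.0 and 25.7 at 4 h. Its 4 h and untreated arrays overlapped, and its change was -1.73 ± 0.16 at 2 h and 0.08 ± 0.16 at 4 h. Zfp707 gave 87.9 and 79.6, then 27.4 and 25.7, then 97.1 and 81.7. The 2 h pair again stood alone, with changes of -1.66 ± 0.11 at 2 h and 0.09 ± 0.11 at 4 h.

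Zfp287 passed its starting level. It gave 77.0 and 73.5 in untreated cells, 24.1 and 24.2 at 2 h, and 104 and 98.7 at 4 h, and the 3 time points did not overlap. Its change was -1.64 ± 0.06 at 2 h and 0.43 ± 0.06 at 4 h, called in both. Zfp112 gave 13.5 and 10.5, then 4.38 and 3.32, then 13.7 and 14.2, and both 4 h arrays lay above both untreated ones, but its change at 4 h (0.23 ± 0.19) was not called. Between 2 h and 4 h it rose by 1.87 ± 0.19, Zfp287 by 2.07 ± 0.06, Zfp111 by 1.94 ± 0.12 and Zfp667 by 1.81 ± 0.16. Zfp454 rose at least 1.87-fold by the same kind of bound.

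Other members had come back only in part. Zfp41 gave 74.4 and 75.4 in untreated cells, 25.3 and 20.0 at 2 h, and 47.6 and 41.8 at 4 h. Zfp690, now named Zscan29, gave 24.8 and 24.1, then 7.79 and 7.30, then 10.8 and 13.8. In both genes the 4 h arrays lay between the other pairs, and both were called lower at 4 h as well (-0.75 ± 0.14 and -1.0 ± 0.13). Zfp160 (29.5 and 29.1, 9.45 and 8.79, 20.2 and 25.4) and Zfp526 (14.5 and 12.6, 3.27 and 4.44, 10.3 and 10.3) also had 4 h arrays between the other pairs, but their changes at 4 h were not called (-0.37 ± 0.13 and -0.39 ± 0.17). One of the 2 h arrays of Zfp526 was not well above background.

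**Figure D2:**
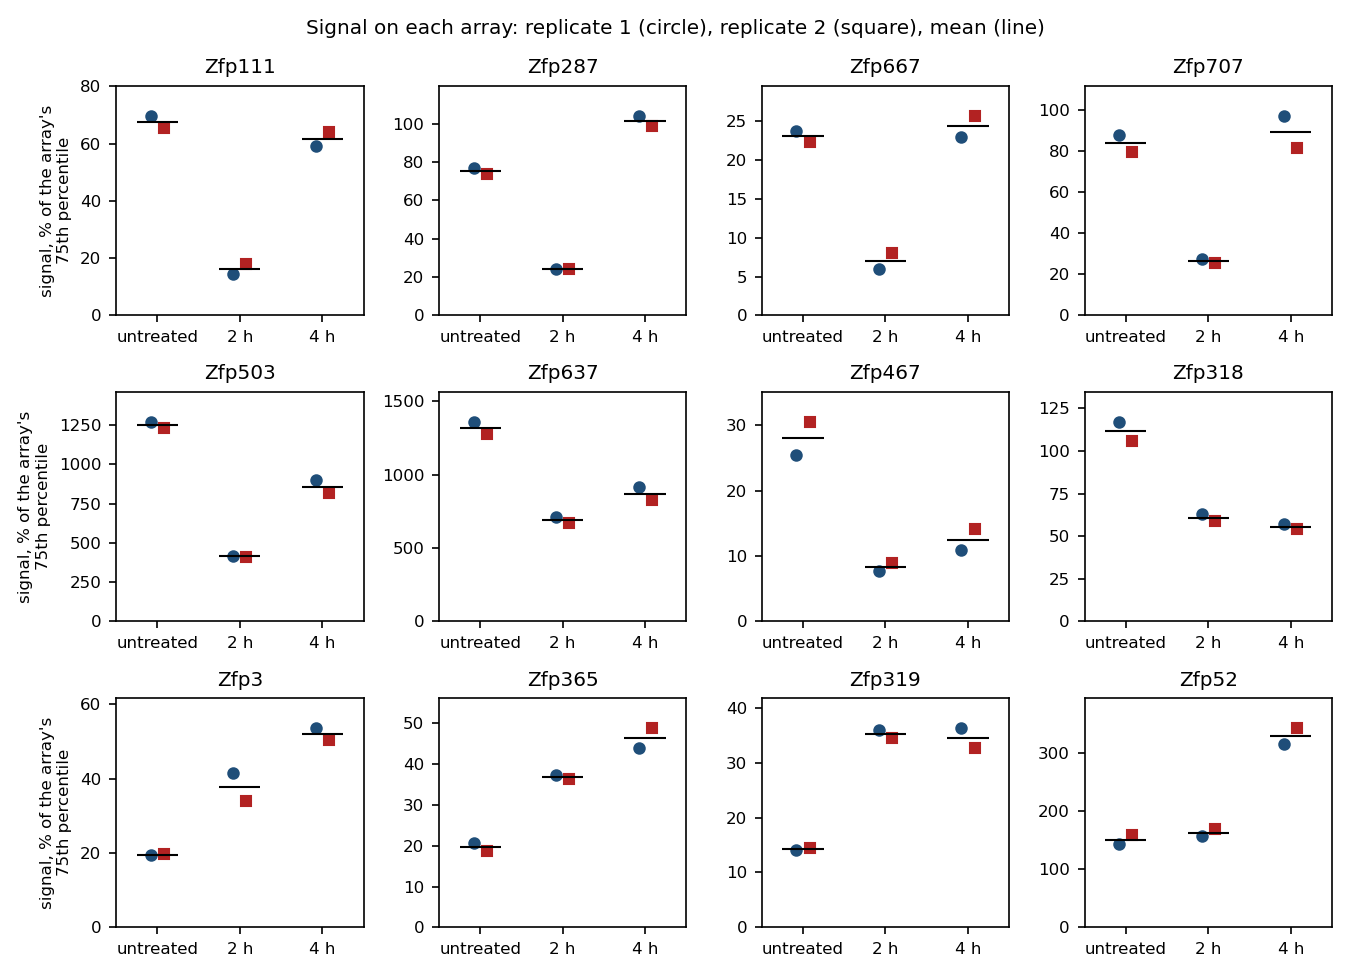
Signal of 12 members as a percentage of the 75th percentile of each array (y axis from 0, its own scale in each panel) at the 3 time points; circles are replicate 1, squares replicate 2 and lines the mean of the pair. Zfp111, Zfp287, Zfp667 and Zfp707 drop at 2 h and are near or above their untreated signal at 4 h, Zfp467 and Zfp318 are still low at 4 h, and Zfp3, Zfp365 and Zfp319 are higher at both times.

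The promoters of these members were read to show what they share beside the name. RefSeq (GRCm38.p6) gave 228 promoters for 172 of the 215 members, each with 250 bases before and 50 after a transcription start. The letters ACANTTCCC, on either strand, form the core of the element bound by Zfp143, itself a member and an activator of many housekeeping promoters. This motif was picked after the members' promoters had been read, and 10 motifs were searched in all. It was in 12.7% of the members' promoters, in 2.27% of all 32851 promoters of the same length and in 2.56% of those of protein-coding genes. Duplicated genes can inherit a promoter from each other, so these are not independent sequences. The stretches around the core are shown for the 6 members that hold it and had the lowest change at 2 h, each read 5′ to 3′ on the strand of the gene, with the core in capitals.
Zfp454 (chr11:50887639-50887707, minus strand): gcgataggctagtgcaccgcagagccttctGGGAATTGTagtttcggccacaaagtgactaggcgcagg
Zfp111 (chr7:24208175-24208243, minus strand): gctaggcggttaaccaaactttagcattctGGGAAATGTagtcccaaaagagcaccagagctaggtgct
Zfp112 (chr7:24112141-24112303, plus strand, 2 matches): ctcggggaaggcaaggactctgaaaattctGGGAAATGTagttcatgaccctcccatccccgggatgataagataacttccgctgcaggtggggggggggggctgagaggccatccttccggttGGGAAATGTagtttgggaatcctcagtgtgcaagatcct
Zfp661 (chr2:127584719-127584787, minus strand): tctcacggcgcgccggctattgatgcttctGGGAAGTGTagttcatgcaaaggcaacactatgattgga
Zfp28 (chr7:6383146-6383214, plus strand): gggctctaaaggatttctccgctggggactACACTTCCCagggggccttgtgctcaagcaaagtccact
Zfp93 (chr7:24270316-24270384, plus strand): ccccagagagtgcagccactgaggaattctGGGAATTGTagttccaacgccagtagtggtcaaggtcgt

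In Zfp28 the core stands on the strand of the gene as spelled above, and in the other 5 it stands as the reverse complement. The 27 members with the core had a median change of -0.55 at 2 h, and the 145 with a promoter but no core had -0.33. Of the former 19 were called lower (70.4%), of the latter 78 (53.8%), beside 15.3% of all names tested. The core also stood in promoters of members that were not called at 2 h, some of which are shown for that contrast, with the same capitals.
Zfp180 (chr7:24081844-24081896, plus strand): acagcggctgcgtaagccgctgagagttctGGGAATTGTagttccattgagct
Zfp260 (chr7:30095017-30095075, plus strand): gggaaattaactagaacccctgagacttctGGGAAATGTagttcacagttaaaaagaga

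Zfp180 gave 132 and 141 in untreated cells, 122 and 120 at 2 h, and 188 and 200 at 4 h, with a change of -0.17 ± 0.07 at 2 h. Zfp260 gave 13.2 and 14.2, then 19.0 and 20.9, then 17.6 and 32.6, and its 2 h change was 0.54 ± 0.30. Its other probe gave -0.33 at 2 h, so the probes of Zfp260 disagree in direction. The other members with the core that were not called at 2 h were Zfp72 (-0.92), Zfp2 (-0.51), Zfp444 (-0.36), Zfp558 (-0.18), Zfp60 (0.03) and Zfp146 (0.49). Another probe of Zfp60, above background on all 6 arrays, gave -1.08 at 2 h, so the probes of Zfp60 disagree. The transcript of Zfp143 itself was not called at 2 h (54.9 and 56.0 in untreated cells, 52.3 and 51.2 at 2 h; -0.10 ± 0.05) and was called higher at 4 h (67.6 and 69.4; 0.31 ± 0.05). A match of letters is a description and was not tested as a binding site.

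Among the other motifs searched on both strands, the ETS core CCGGAAG was in 23.7% of the members' promoters and in 8.86% of all promoters, or 11.6% of protein-coding ones. The GC box GGGCGG was in 50.4%, against 35.7% and 46.2%. The 97 members with a GC box had a median change of -0.25 at 2 h and the 75 without one had -0.60. The Nrf1 core GCATGCGC was in 5.7% against 2.71% of all promoters, the Yy1 core AAGATGGC in 5.26% against 2.75%, and the CRE TGACGTCA in 4.39% against 1.79%. The CCAAT box was in 34.2% against 37.4%, and the TATA box TATAAA in 8.33% against 13.6%. The AP-1 letters TGANTCA were in 3.07% against 7.81%, and those of the antioxidant response element, TGACNNNGC, in 14.9% against 12.4%. The ETS core and the Zfp143 core share the letters TTCC on one of their strands. The next letter is G in the ETS core and C in the Zfp143 core, so the same TTCC cannot count for both. The members' promoters held more G and C (median 58.3% against 52.7% of all and 56.3% of protein-coding promoters).

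Position differed among the members. RefSeq placed 214 members on a chromosome, 182 of them under the same symbol and 32 under another, and 1 name had no match. Chromosome 7 held 54 members (25.2% of those placed, beside 9.27% of all protein-coding genes), more than any other, with a median change of -0.61 at 2 h and 0.75 between 2 h and 4 h. The median at 2 h was lower still on chromosomes 11 (-0.84, 13 members), 17 (-0.68, 19), 4 (-0.67, 9), 13 (-0.66, 13) and 14 (-0.66, 2). On the rest it was not as low. Of all placed members, 102 lay within 2 protein-coding genes of another Zfp gene. Their median change was -0.58 at 2 h, 0.22 at 4 h and 0.80 from 2 h to 4 h, and 62 were called lower at 2 h (60.8%), beside 15.3% of all names and 16.2% by the same detection rule. The 112 that lay alone had -0.32, -0.01 and 0.36, and 56 were called lower (50%).

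Within a cluster the members did not all move alike. In the run Zfp180, Zfp112, Zfp235, Zfp114, Zfp111, Zfp108, Zfp93 and Zfp61 on chromosome 7, 5 of 8 were called lower at 2 h, and the changes ranged from -2.07 to 0.23. Zfp111 and Zfp114, side by side in this order, held the 2 ends of that range. In the run of Zfp667, Zfp583, Zfp78 and Zfp28 all 4 were called lower at 2 h, with changes between -1.73 and -1.04 and a median change of 0.07 at 4 h. Zfp583 gave 9.84 and 11.5, then 3.79 and 4.30, then 12.6 and 13.4, and was well above background on only 1 of the 2 h arrays. Zfp28 gave 103 and 99.6, then 42.2 and 40.1, then 97.5 and 104. Zfp27 to Zfp146, the other run of 8, had 6 called lower. On chromosome 17 the run of Zfp54, Zfp51, Zfp53 and Zfp52 had 3 called lower at 2 h and a median change of 0.55 at 4 h. These counts stand beside 15.3% of all names tested that were called lower at 2 h. Sequences within a cluster can be alike, and how far their probes read each other's transcripts was not tested.

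**Figure D3:**
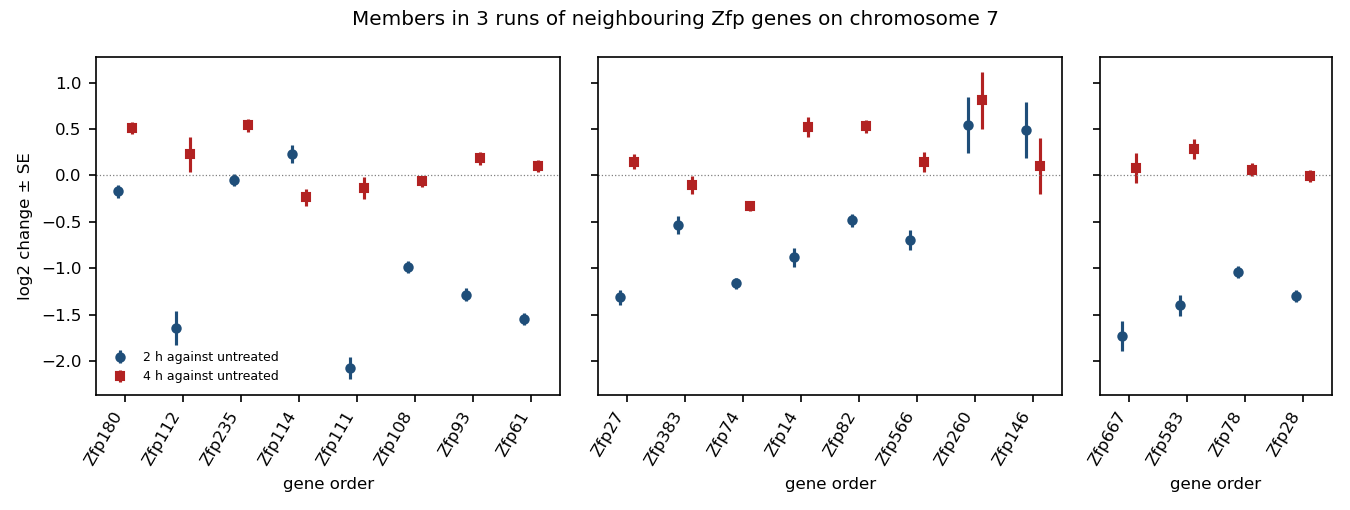
Log2 change ± SE (y axis) at 2 h (circles) and at 4 h (squares) against untreated for members in 3 runs of neighbouring Zfp genes on chromosome 7, in gene order along the x axis. In the right panel all 4 members lie between -1.73 and -1.04 at 2 h and near 0 at 4 h, while in the left panel Zfp111 (-2.07) and its neighbour Zfp114 (0.23) lie apart.

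The fall at 2 h was deeper among dim probes. With names divided into 4 equal groups by mean signal over the 6 arrays, the members' median change at 2 h was -0.87 in the dimmest group (43 members), -0.47 in the next (78), -0.29 in the one after (68) and 0.01 in the brightest (26). Over all names with the same entry the medians were 0.05, 0.00, 0.04 and 0.20. The gap between 2 h and 4 h followed the same order, with members' medians of 0.88, 0.63, 0.54 and 0.11. The mean that sets the group includes the 2 h arrays, so a member that fell is placed lower for that reason too. Of the 215 members 204 were well above background on all 6 arrays. Among these 111 (54.4%) were called lower and 16 (7.84%) higher at 2 h, beside 15.3% and 23.7% of all names tested, with a median of -0.37. The part of signal level in the result was not tested.

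**Figure D4:**
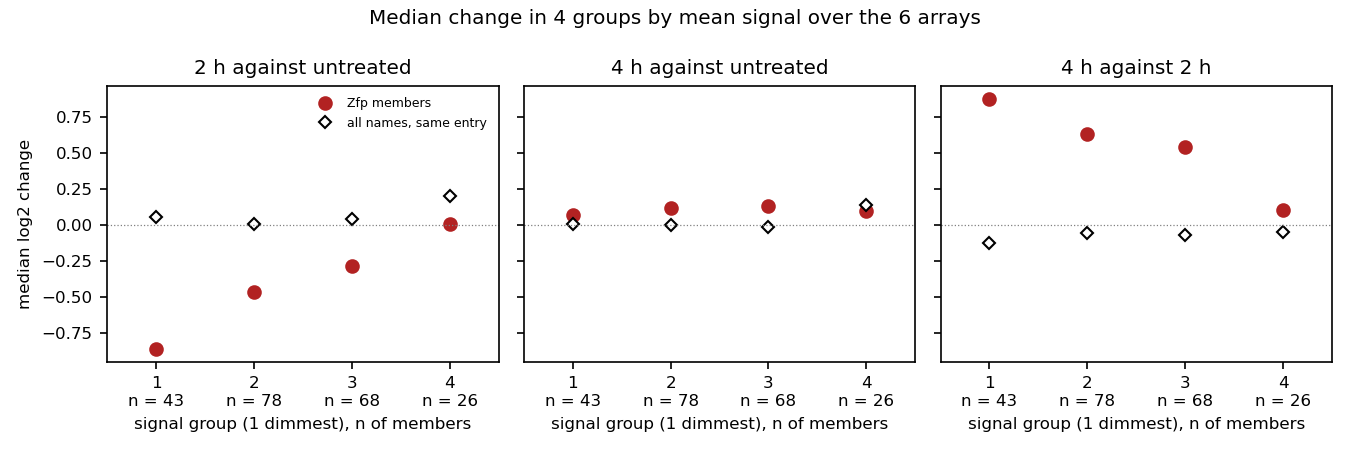
Median log2 change (y axis) of the Zfp members (filled circles) and of all names with the same entry (open diamonds) in 4 groups by mean signal over the 6 arrays, from 1 (dimmest) to 4. The members' medians run from -0.87 to 0.01 at 2 h against untreated, lie between 0.07 and 0.13 at 4 h against untreated, and run from 0.88 to 0.11 between 2 h and 4 h.

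The members with the highest probe signal in untreated cells included both falling and steady genes. Zfp503, a developmental corepressor without a KRAB domain, gave 1270 and 1230 in untreated cells, 416 and 413 at 2 h, and 898 and 815 at 4 h. The 3 pairs did not overlap, and it was called lower at both times (-1.60 ± 0.07 and -0.55 ± 0.07). Zfp637 gave 1360 and 1280, then 712 and 670, then 915 and 825, and was also lower at both times (-0.93 ± 0.08 and -0.60 ± 0.08). Zfp207, a spindle assembly factor, gave 1220 and 1160, then 1290 and 1220, then 1180 and 1070, and was not called. Zfp131, which carries a BTB domain, was not called either (1250 and 1120, 1250 and 1210, 1360 and 1280). Zfp330, a nucleolar protein, gave 1210 and 1150, then 1570 and 1550, then 1490 and 1370, and was called higher at 2 h (0.40 ± 0.07), though with spike-in scaling this change was -0.06.

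A small group moved the other way. Zfp473, a component of the U7 particle that processes histone pre-mRNA, gave 6.85 and 7.53 in untreated cells, 17.4 and 19.0 at 2 h, and 12.8 and 15.6 at 4 h. All treated arrays lay above both untreated ones, with changes of 1.34 ± 0.12 at 2 h and 0.98 ± 0.12 at 4 h. Zfp3 gave 19.5 and 19.6, then 41.5 and 33.9, then 53.6 and 50.4. It was called higher at 2 h (0.94 ± 0.11), at 4 h (1.41 ± 0.11) and between the times, and its second probe agreed in direction (0.90 and 1.54).

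Zfp365, a target of p53 linked to genome stability, gave 20.6 and 18.7, then 37.3 and 36.3, then 43.9 and 48.9. Zfp385, now named Zfp385a and also a target of p53, gave 206 and 218, then 330 and 348, then 434 and 408. In both genes the 3 time points stood in steps without overlap. The changes were 0.91 ± 0.09 and 1.24 ± 0.09 for Zfp365, and 0.68 ± 0.07 and 0.99 ± 0.07 for Zfp385, whose other 2 probes gave 0.58 and 0.81 at 2 h. With the slide as a replicate block the further rise of Zfp365 between 2 h and 4 h (0.33) was no longer called.

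Zfp52 rose later. It gave 143 and 159 in untreated cells, 157 and 169 at 2 h, and 315 and 343 at 4 h, and its 2 h arrays overlapped the untreated ones. Its change was 0.11 ± 0.09 at 2 h and 1.12 ± 0.09 at 4 h. The second probe of Zfp52 gave 0.60 at 2 h and 1.6 at 4 h, so the probes part at 2 h. Zfp319 gave 14.0 and 14.4, then 35.9 and 34.4, then 36.3 and 32.6, with a change of 1.31 ± 0.08 at 2 h. Its other 2 probes gave -0.96 and 0.25 at 2 h, so the probes of Zfp319 disagree in direction.

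Members low at 4 h form a further set. Zfp467, which promotes fat cell over bone cell formation, gave 25.5 and 30.5, then 7.72 and 8.91, then 10.9 and 14.1, and was called lower at both times (-1.75 ± 0.17 and -1.17 ± 0.17). With the slide as a replicate block its rise between the times (0.58) was also called. Zfp318 gave 117 and 106, then 62.9 and 58.7, then 57.2 and 54.1, with changes of -0.87 ± 0.08 and -1.0 ± 0.08. One of its other probes differed at 4 h (0.03). The probe named Zfp469, whose accession now belongs to Tnrc18, gave 447 and 432, then 502 and 331, then 191 and 225. Its 2 h arrays lay on both sides of the untreated ones, and only at 4 h was it called (-1.09 ± 0.22). Zfp291, now Scaper, which acts at the endoplasmic reticulum, gave 111 and 104, then 125 and 115, then 81.1 and 68.0, and was called lower at 4 h (-0.53 ± 0.11) and between the times (-0.69 ± 0.11).

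Some of the members named here had arrays of a pair that lay far apart, and they were not called. Zfp182 gave 6.06 and 23.1 in untreated cells, 6.03 and 3.18 at 2 h, and 3.17 and 2.52 at 4 h, where neither array was well above background. Its 4 h signal was at least 3.28-fold lower by the mean, a bound smaller than the gap between its own 2 untreated arrays. Zfp533, now Zfp385b, gave 5.59 and 5.89, then 8.38 and 32.0, then 2.65 and 6.05, and its change at 2 h was 1.51 ± 0.75. Zfp410, an activator of the chromatin remodeller gene Chd4, gave 232 and 232, then 221 and 224, then 169 and 267. In each of these genes 1 array stood apart from its pair.

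**Figure D5:**
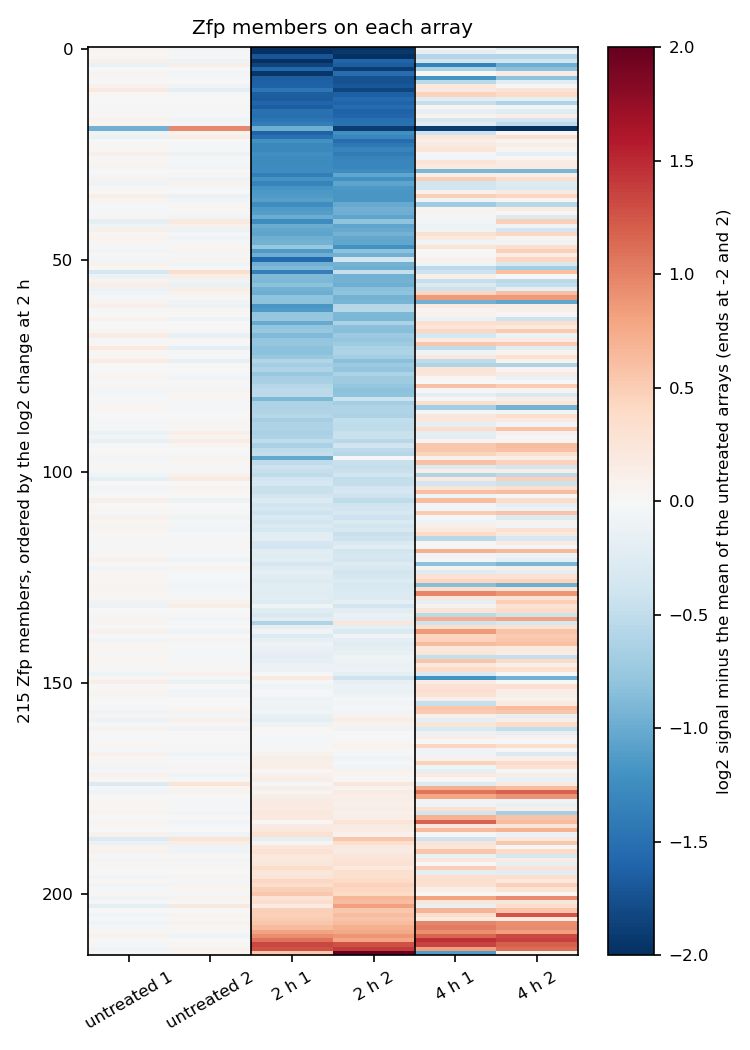
Log2 signal of each of the 215 members (rows, ordered by their change at 2 h) on the 6 arrays, as the difference from the mean of the untreated pair; blue is lower, red is higher, and the scale ends at -2 and 2. The upper rows are blue on both 2 h arrays and mostly pale at 4 h, and most of the lowest rows are red on the 2 h and 4 h arrays. The last row, Zfp533, is blue on the 4 h array of replicate 1.

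The members of known role moved in several directions. Of 34 names listed for their role 29 were members, Zfp42 did not enter, and 4 were not analysed here. Among those that bind RNA or act in translation, Zfp36 (tristetraprolin), which speeds the decay of AU-rich mRNAs, gave 83.5 and 82.7 in untreated cells, 94.8 and 90.7 at 2 h, and 134 and 124 at 4 h. It was called higher only at 4 h (0.63 ± 0.06). Zfp622, a ribosome maturation factor, was also called higher at 4 h (553 and 505, 651 and 591, 777 and 696; 0.48 ± 0.10), and with the slide as a replicate block at 2 h too (0.23). Zfp598, a ubiquitin ligase of stalled ribosomes, was not called (537 and 443, 478 and 433, 543 and 485), and neither was Zfp106, an RNA-binding protein (252 and 261, 261 and 260, 244 and 256). Zfp346, which binds double-stranded RNA, fell at 2 h (65.9 and 68.2, then 46.6 and 38.5, then 58.4 and 54.3; -0.66 ± 0.11). Zfp326, a splicing-linked factor, gave 424 and 407, then 467 and 471, then 484 and 495, and was called higher at 4 h (0.24 ± 0.06), though the change was -0.02 with no scaling or with spike-in scaling. With the slide as a replicate block its 2 h change (0.17) was called.

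Among regulators of cell fate, Zfp521, which restrains fat cell formation, fell in steps (881 and 864, 688 and 729, 494 and 464; -0.30 ± 0.07 at 2 h and -0.86 ± 0.07 at 4 h). Zfp423, which promotes it, was called higher at 2 h alone of the comparisons with untreated cells (15.8 and 15.3, 22.5 and 20.4, 16.0 and 16.0; 0.46 ± 0.07). Zfp462 gave 173 and 174, then 73.1 and 72.6, then 92.7 and 91.7, lower at both times (-1.25 ± 0.05 and -0.92 ± 0.05). Its second probe gave -0.64 and 0.15, so the probes part at 4 h. Zfp281, a regulator of pluripotency, was level at 2 h (244 and 250, 231 and 244) and higher at 4 h (363 and 384; 0.60 ± 0.06). Zfp217, an oncogene product, was called higher at 4 h (9.82 and 10.8, 12.4 and 16.3, 18.0 and 19.8; 0.88 ± 0.15), and at 2 h (0.47) with the slide as a replicate block.

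Zfp238 and Zfp148, both transcription factors, were not called in any comparison (73.3 and 74.9, 68.8 and 72.6, 79.6 and 77.7 for Zfp238; 524 and 504, 560 and 490, 547 and 553 for Zfp148). Other probes of Zfp148 gave 0.01, -0.56 and 0.60 at 2 h, so its probes disagree in direction. Zfp57, which with Trim28 keeps imprints, was dim (12.3 and 9.91, 7.39 and 6.17, 7.80 and 11.6) and was not called. Zfp161, now Zbtb14, fell at 2 h (44.7 and 45.8, then 34.6 and 38.7, then 43.9 and 43.9; -0.31 ± 0.07). Zfp292 also fell at 2 h (65.4 and 70.4, then 47.3 and 38.5, then 66.6 and 71.2; -0.67 ± 0.12). Its 4 h arrays overlapped the untreated ones.

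Members with signalling or ubiquitin roles also differed. Zfp110, which binds the p75 neurotrophin receptor, fell at 2 h and was higher at 4 h (116 and 117, 78.1 and 75.4, 137 and 148; -0.60 ± 0.06 and 0.29 ± 0.06). Its relative Zfp369 was not called at 2 h (21.0 and 26.8, 18.2 and 16.9, 27.1 and 32.9; -0.44 ± 0.16). Zfp91, a ubiquitin ligase, was not called (513 and 532, 536 and 550, 456 and 513). Zfp451, a SUMO ligase, gave 111 and 106, then 91.5 and 90.2, then 214 and 200, called lower at 2 h (-0.25 ± 0.06) and higher at 4 h (0.94 ± 0.06). Its 3 other probes gave -0.44, 0.95 and -0.53 at 4 h, and the mean of its probes gave 0.02 at 2 h. Zfp335 fell at 2 h (189 and 158, 98.1 and 87.7, 142 and 123; -0.90 ± 0.13), but its second probe gave 0.64. With the slide as a replicate block its 4 h change (-0.39) was called. Zfp259, now Zpr1, gave 319 and 309, then 351 and 341, then 298 and 299, and was called lower only between 2 h and 4 h (-0.21 ± 0.05). Zfp185, an actin-binding LIM protein, was called higher at 2 h (21.6 and 21.9, 25.4 and 27.6, 19.0 and 18.6; 0.29 ± 0.06), though the change was -0.05 with no scaling and -0.17 with spike-in scaling. With the slide as a replicate block its 4 h change (-0.21) was called lower. The same block added calls between 2 h and 4 h for Zfp473 (-0.36), Zfp217 (0.41), Zfp346 (0.41), Zfp161 (0.26) and Zfp622 (0.25).

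A gene's other probes gave a look at the same RNA through other sequences. Among the members 130 had more than 1 probe, and 134 other probes of 94 genes were well above background on all 6 arrays. At 2 h 103 of these 134 had the sign of the chosen probe, with a median of -0.16 beside -0.23 for the chosen probes they belong to. Between 2 h and 4 h the sign was shared by 106, with medians of 0.36 and 0.49. In 12 probes the 2 h change differed from the chosen one by more than 1 on the log2 scale, and these belonged to Zfp119, Zfp169, Zfp319, Zfp335, Zfp386, Zfp451, Zfp508, Zfp553, Zfp60, Zfp606 and Zfp74. These probes measure the same 6 RNA samples and add no replicate.

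Names were those of the array's design. Of the 32 members with another symbol in RefSeq, 16 are now called Zbtb, Zscan or Zkscan, and their median change at 2 h was -0.52, with 11 called lower and 2 higher. The 10 that now carry a name of another kind, such as Rnf114 and Ltn1 (Zfp313 and Zfp294 on the array), had a median of -0.12, with 4 called lower and 0 higher at 2 h. Of all names tested, 15.3% were called lower at 2 h and 23.7% higher. The 182 with the same symbol had a median of -0.41.

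At the detection threshold, the dimmest members were Zfp558 (2.68 and 2.58 in untreated cells), Zfp113 (3.25 and 4.74) and Zfp454 (5.03 and 4.67). Just outside it stood Zfp697 (2.28 and 2.36), Zfp641 (2.39 and 2.14) and Zfp94, with 14.0 on the 1 untreated array whose spot was not left out as an outlier. Of the 25 names that did not enter, 10 were above background on 1 untreated array, 4 on a later array but on no untreated one, and 11 on no array. Zfp750 went from 0.952 and 0.481 in untreated cells to 7 and 6.48 at 4 h, and Zfp474 from 0.668 and 0.432 to 5.11 and 4.95 at 2 h, so the detection rule left out genes that were seen only after treatment. Zfp42 (Rex1), a marker of pluripotent cells, was not above background in untreated cells.

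Genes of the same protein class under other names were set beside the members. Of 26 names Zbtb, Zscan or Zkscan with a number, 24 entered by the same rule, with 9 (37.5%) called lower at 2 h, beside 15.3% of all names and 16.2% by the same rule, and 4 (16.7%) called higher, beside 23.7% and 20.8%. The median change was -0.17 at 2 h, 0.16 at 4 h and 0.27 from 2 h to 4 h. The difference from the members was not tested. The partners of KRAB zinc fingers, 22 measured of 23 listed, had a median change of 0.10 at 2 h, beside 0.12 for all names. Of them 4 (18.2%) were called lower, beside 15.3% of all names, and 3 (13.6%) higher, beside 23.7%. Trim28 was not called (1600 and 1500 in untreated cells, 1670 and 1490 at 2 h; 0.03). Setdb1 gave 113 and 115, then 77.6 and 76.0, then 88.7 and 86.5, and fell at 2 h by limma (-0.57, adjusted p = 0.00223). The SUMO ligase Pias1 fell too (170 and 168, then 77.7 and 75.8; -1.14, adjusted p = 0.000399, limma), as did Atf7ip (-0.51) and Morc3 (-0.50). Mta1 and Cbx3 rose (0.31 and 0.36).

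The arrays themselves were alike in quality. The 75th percentile of the signal was 674 to 883, between 57.3% and 68.0% of spots were well above background, and no spot was saturated. Members' log2 signals correlated between the 2 arrays of a time point at 0.996, 0.993 and 0.995 across genes, which are not independent replicates. All 15 fibroblast markers measured were well above background in untreated cells, and 0 of 4 pluripotency markers were. Of 8 endothelial markers 3 (Kdr, Tek and Vwf) were above background on both untreated arrays, Pecam1, Cdh5, Tie1 and Robo4 were on neither, and the summed signal was 47.3 and 54.0 in untreated cells, 110 and 98.8 at 2 h, and 95.9 and 98.1 at 4 h. Haematopoietic markers, 6 of 7 above background, summed to 1960 and 1820, 2180 and 2160, and 2200 and 2060. For epithelial markers (4 of 7) the sums were 348 and 314, 440 and 424, and 432 and 384, for muscle markers (4 of 6) 2260 and 2130, 2770 and 2530, and 2500 and 2280, and for neural markers (3 of 6) 487 and 487, 595 and 571, and 520 and 486. The fibroblast markers summed to 146000 and 138000 in untreated cells, 174000 and 171000 at 2 h, and 174000 and 161000 at 4 h. All 6 sums, that of the fibroblast markers included, were higher on both 2 h arrays than on both untreated ones. Their part in the members' changes was not tested. A sum follows its brightest probes, such as Lyzs (1720 and 1590 in untreated cells). Pdgfra (-1.08), Pdgfrb (-0.06) and Fbn1 (-0.08) had negative changes at 2 h, the other fibroblast markers did not. Ptprc (-0.06) and Cd14 (-0.10) did too, the other haematopoietic markers did not. With this scaling the median of all names was 0.12 at 2 h, and with spike-in scaling -0.34.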

How the data were processed

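Per the file headers, the authors scanned 6 one-colour arrays on a G2505B scanner and extracted spot intensity with Feature Extraction 9.5.3.1; the deposited files hold intensity on a linear scale, already background-corrected in the processed signal used here. The deposited value table equals it within 5e-04. From it, log2 values were computed and each array's 75th percentile over 43379 non-control spots was subtracted. Flagged spots (99 to 149 per array) were left out, and spots of 1 probe were averaged. The 17345 names that a pair of arrays measured well above background, 1 probe each, were fitted in 1 model of all arrays across all genes with limma 3.58.1 in R 4.3.3 (data.table, version 1.17.8), whose moderated spread had 3 residual and 1.63 prior degrees of freedom, with Benjamini-Hochberg adjustment.

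Where neither array of a group was well above background, a fold is a bound from each array's lowest such signal, or the probe's own where larger. The number of arrays limits the precision. Replicate numbers mark the slide. Deviations of same-numbered arrays from their group means correlated at 0.248, 0.186 and 0.241 across genes, which are not independent. What these values come from was not tested. The main fit does not use the slide, and the blocked fit is an alternative.

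The members, lists and tests were chosen with earlier results of these data known. Members are named when both arrays of a time point lay beyond the other pair and the change was among the largest (10 lowest and 5 highest at 2 h, 5 and 5 at 4 h, 3 and 5 between the times), when they were among the 5 with the highest signal in untreated cells, when they lay at the detection threshold, or when they stood on a list of 34 with a known role. Motifs, positions and signal groups were chosen after the files had been seen, as no protein sequences were used here; genes named for them, such as Zfp28 and Zfp180, were chosen after their values were seen. Promoters and gene order are from RefSeq, GRCm38.p6. Probe coordinates were left out, since their build is not given. A gene of the list of KRAB partners is not reported here.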

Additional observations from a re-analysis of the deposited data

How the results depend on the processing

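The family's median change relative to all names kept its direction at 2 h and between 2 h and 4 h under every alternative run. Many of these runs could not, or could hardly, move it. Median centring, no scaling and spike-in scaling shift all names of an array alike. The deposited value table, the replicate block, another estimate of the spread and leaving out an array outside the comparison also leave it in place. At 2 h this median was -0.45 with quantile normalization, -0.39 with normexp and the 75th percentile, -0.36 with normexp and quantile normalization, -0.60 with no filter on dim probes, -0.47 with names above background on all 6 arrays and -0.45 with the mean of a name's probes. Between 2 h and 4 h it was 0.51, 0.43 and 0.53 with both forms of normexp, in that order, and with no filter. At 4 h it was 0.065 with quantile normalization and turned to -0.12 with no filter on dim probes.

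With normexp and the 75th percentile, 52 members were called lower and 5 higher at 2 h, beside 4.25% and 4.66% of all names. The counts were 7 and 24 at 4 h, beside 4.85% and 8.65%, and 1 and 64 between the times, beside 1.38% and 4.45%. Members called higher at 2 h numbered 9 with median centring, 6 with no scaling, 5 with spike-in scaling and 25 with the replicate block (paired by slide). The shares of all names were 10.7%, 8.9%, 8.48% and 33.5%, in that order. At 4 h, 33 were higher with median centring, 21 higher and 57 lower with no scaling, and 29 and 68 with spike-in scaling. With no filter 35 were higher and 16 lower, beside 9.42% and 6.83% of all names. Members called lower between the times numbered 6, 6 and 4 with median centring, no scaling and spike-in scaling, and 4 with no filter. The shares of all names were 10.2%, 9.22%, 7.37% and 3.89%. Where the scaling differs, the medians of all names shifted too; otherwise the cause was not tested. The replicate block changed no other count by more than 1.5 times.

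Leaving out 1 array at a time, with a lone array assumed to vary like the other groups, gave 82 to 109 lower and 10 to 16 higher at 2 h, 14 to 26 and 33 to 53 at 4 h, and 5 to 8 and 98 to 120 between the times, with medians of -0.51 to -0.49, 0.0227 to 0.0583 and 0.58 to 0.63. In every such run smaller shares of all names were called lower and higher too, so fewer calls are not particular to the family. The upper end of each range of counts came from runs without an array outside the comparison. Counts from a lone array rest on its assumed spread, and the medians do not.

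Of 168 values of named members, 39 kept their direction and call under every alternative, 33 lost the call without 1 array and 49 with normexp and the 75th percentile. Those that reversed were Zfp398 at 4 h (0.46, normexp and the 75th percentile), Zfp330 at 2 h (-0.0557, spike-in scaling), Zfp326 at 4 h (-0.0239 with no scaling, -0.0238 with spike-in scaling), Zfp451 at 2 h (0.0198, mean of probes) and Zfp185 at 2 h (-0.0494 with no scaling, -0.167 with spike-in scaling). The planned protein features, with a strict finger pattern and a loose KRAB pattern as alternatives, were not run. With 2 arrays in a group, small changes near background limit what can be called.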
